A study of Mus musculus with 4 samples.

Results

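The genes described here are a set of 34 interferon response genes: the receptor chains for type I and type II interferon, the proteins that carry the signal to the nucleus, and the antiviral and GTPase genes that interferon induces. The rule goes by gene name and uses no measured value, although the list was drawn up with earlier results of these data known. Every array probe whose gene name or RefSeq symbol is on the list was taken. This gave 51 probes for 33 genes, of 41174 probes on the array. Xaf1, an apoptosis-linked interferon-induced gene, matched no probe by that rule and is not analysed here.

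The cells were B16-F10, a mouse melanoma line, grown in culture. In the anti-TIM3 group they received a goat polyclonal agonist antibody against mouse TIM3, an inhibitory immune receptor encoded by Havcr2, and in the IgG group they received unspecific goat IgG. Both treatments lasted 2 h. The dose was 15 ug/ml for each IgG sample and for the anti-TIM3 samples of replicates 1, 2 and 4, while the labels do not repeat the anti-TIM3 dose for replicate 3. Each of 4 two-colour arrays paired anti-TIM3 RNA in Cy5 with IgG RNA in Cy3, both from 1 passage, with passages 14, 16, 18 and 19 as replicates 1, 2, 3 and 4. The replicates are therefore passages of a single line, and p-values measure the spread between those passages. Cy5 held the anti-TIM3 sample on every array, and with no dye swap a probe's dye bias cannot be told apart from the antibody's effect.

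Type I interferons bind a receptor made of Ifnar1 and Ifnar2, whose kinases Jak1 and Tyk2 phosphorylate Stat2. A complex that holds Stat2 and Irf9 then binds the interferon-stimulated response element in promoters of antiviral genes. Interferon gamma binds Ifngr1 and Ifngr2, and its signal acts through the gamma-activated site, as in the promoter of Irf1. In melanoma, interferons are known for raising antigen presentation and slowing growth.

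The response element was searched as GAAA, any 2 bases and GAAA again, and the gamma-activated site as TTCNNNGAA, both on either strand, in RefSeq promoters of build GRCm38.p6 that run from 250 bases before to 50 bases after each gene's start. Of the 33 genes with a probe, 28 had a promoter entry. The response element match was present for 14 of these 28 genes and for 3.99% of all 27025 genes with an entry. TTCNNNGAA was present for 9 of 28 (32.1%) and for 9.55% of all genes. The stretches below show what these matches look like in 4 genes of different roles, all upstream of the start. Capitals mark the match, which reads as TTTC, any 2 bases and TTTC where it lies on the other strand. Isg15 has 3 overlapping matches (chr4:156200850-156200921, minus strand), Gbp2 has 1 (chr3:142620579-142620638, plus strand), Ifit3 has 2 (chr19:34583353-34583436, plus strand), and Irf1 has a TTCNNNGAA match (chr11:53769894-53769962, plus strand).
Isg15: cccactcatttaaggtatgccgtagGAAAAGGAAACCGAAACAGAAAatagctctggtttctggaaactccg
Gbp2: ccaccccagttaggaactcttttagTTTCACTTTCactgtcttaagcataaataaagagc
Ifit3: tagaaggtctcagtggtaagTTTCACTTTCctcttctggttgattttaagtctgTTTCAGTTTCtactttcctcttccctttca
Irf1: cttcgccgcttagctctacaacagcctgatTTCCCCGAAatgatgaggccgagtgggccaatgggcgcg

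Most of the set was detected in these cells under both treatments. In both channels and on all 4 arrays, 39 of the 51 probes (76.5%) were well above background by the scanner software's flag, against 49.9% of all probes. These 39 probes covered 29 of the 33 genes. Mx1, an antiviral GTPase, was well above background in Cy5 on 4 arrays and in Cy3 on 2. Irf7, the factor that amplifies type I interferon production, was well above background in Cy5 on 4 arrays and in Cy3 on 0, Zbp1, a sensor of nucleic acid in the Z form, on 3 and 0, and Ifi44, an interferon-induced gene, on 3 and 0. No probe of the set was saturated. The B16-F10 label fits the markers measured: all 7 melanocyte lineage genes (Dct, Tyrp1, Tyr, Pmel, Mlana, Mitf, Sox10) had a probe with this flag in Cy5 and in Cy3 on each array. Of 10 leukocyte markers, Ptprc, Itgam and Adgre1 were not well above background on any array in either channel.

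A log2 ratio of anti-TIM3 over IgG was computed for each probe and array, and limma tested its mean over the 4 arrays against 0, p-values adjusted by Benjamini-Hochberg across the 26543 tested probes, and a call at an adjusted p under 0.05. Of the 51 probes, 47 were bright enough to be tested, and these covered all 33 genes. Of the 47, 7 rose and 2 fell after anti-TIM3, that is 19.1% called, against 27.8% of all tested probes (14.2% higher and 13.6% lower). With each gene represented by its brightest tested probe, 6 of 33 genes rose (Ifnar2, Ddx58, Trim25, Ifit3, Oasl2, Gbp2) and 1 fell (Ifi44), 21.2% called against 28.0% of all named genes (14.6% higher and 13.4% lower). With rises and falls counted, the share called in the set was below the background share. This gap lay in the falls: 2 of 47 probes and 1 of 33 genes fell, against 13.6% and 13.4%. The rises, 7 of 47 probes and 6 of 33 genes, were not below the background shares of 14.2% and 14.6%. These shares rest on few calls, and their differences from the background were not tested. The changes were small: the median absolute log2 ratio was 0.08 over the 47 probes and 0.08 over all tested probes, and the median ratio was 0.04 against 0.01. When arrays were only centred on their median in place of loess normalisation, no probe of the set and none of the array passed (smallest adjusted p of the set 0.749). With the channels fitted separately, ignoring the pairing within an array, Irf1 alone of the set passed (adjusted p = 0.0154), and from the deposited processed signals the calls for Ddx58 probe A_51_P393748, Trim25, Ifit3 and Ifi44 were lost.

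**Figure D1:**
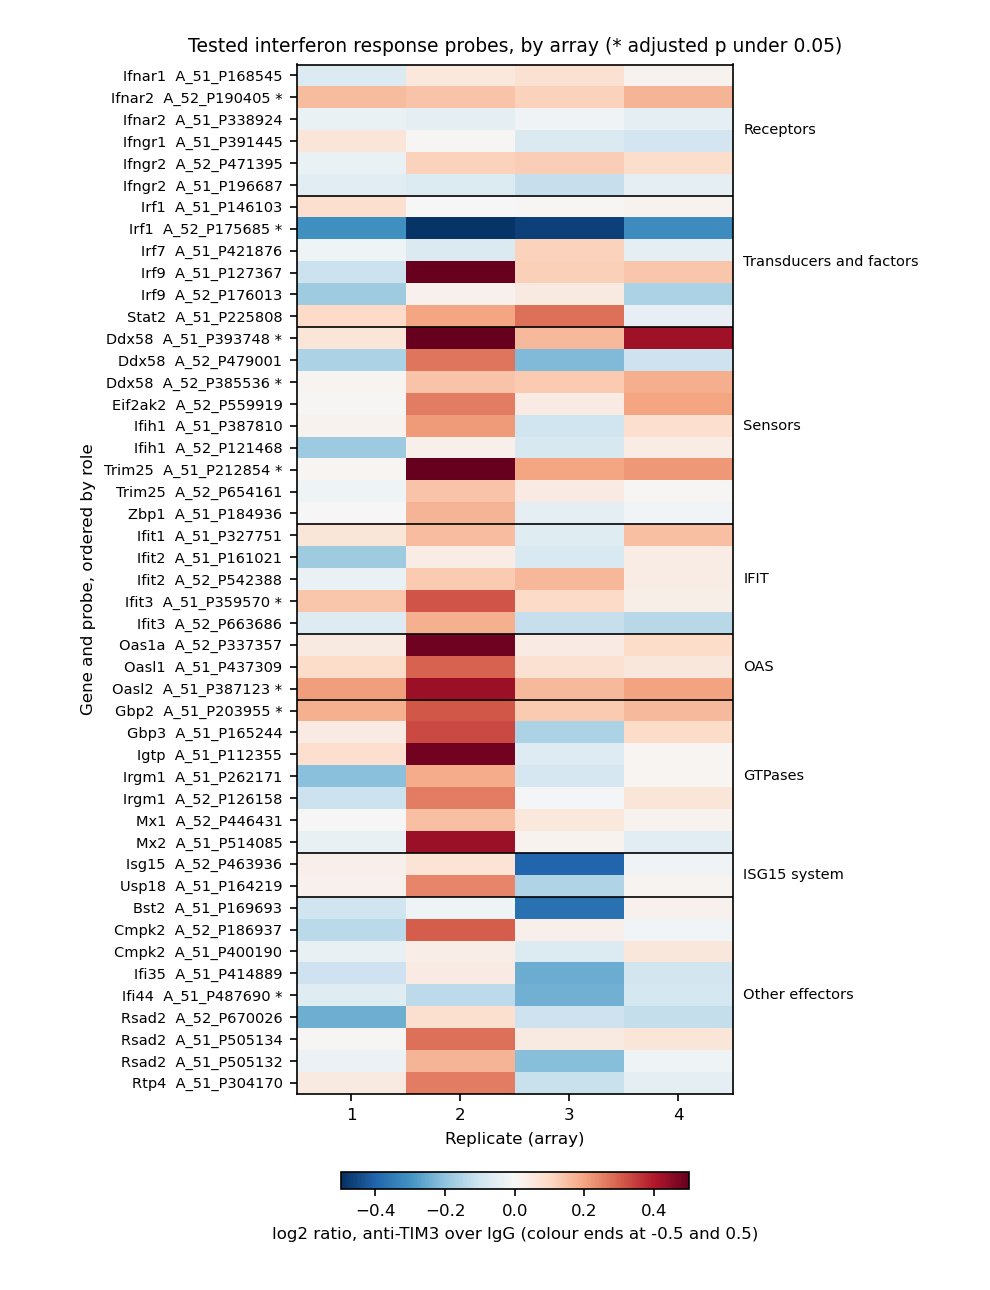
Log2 ratio of anti-TIM3 over IgG for the 47 tested interferon response probes (rows, grouped by role) on each of the 4 arrays (columns); red is higher after anti-TIM3, blue is higher after IgG, and a star marks a limma adjusted p under 0.05. The column of replicate 2 is red in 41 of 47 rows, and the row of Irf1 probe A_52_P175685 is blue on every array.

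Among the receptor chains, Ifnar2, the high-affinity chain of the type I receptor, was the gene whose brightest probe rose. Its probe A_52_P190405 (mm7, chr16:91444402-91444461) had processed signals of 2612, 2414, 2091 and 2113 in anti-TIM3 cells of replicates 1 to 4, against 2260, 2188, 1941 and 1868 in IgG cells. Anti-TIM3 cells were higher on every array, although the ranges of the groups overlapped across arrays. The log2 ratios were 0.16, 0.14, 0.11 and 0.17, with a mean of 0.15 ± 0.02 (SD, n = 4; limma adjusted p = 0.0126). The second Ifnar2 probe, A_51_P338924 (chr16:91455837-91455896), had ratios of -0.03, -0.04, -0.02 and -0.04, all below 0, and did not pass (mean -0.04, 95% interval -0.11 to 0.04, adjusted p = 0.438). Without replicate 4 the adjusted p of the first probe was 0.0515.

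The other receptor chains gave no call. Ifnar1, the second type I chain, had a mean log2 ratio of 0.02 ± 0.06 (SD, n = 4; 95% interval -0.06 to 0.10). Ifngr1, the ligand-binding chain for interferon gamma, had -0.03 ± 0.07 (SD, n = 4). Its direction depended on the processing, being 0.03 from the deposited processed signals. Ifngr2, the signalling chain for interferon gamma, had 0.07 ± 0.07 at its brightest probe and -0.07 ± 0.03 at its other probe (SD, n = 4 each). The brightest Ifngr2 probe passed with intensity and base trends removed (0.11, adjusted p = 0.0451). In the fit of all 4 arrays the highest bound of the 95% intervals of these chains was 0.16, at Ifngr2, and the lowest was -0.15, at its other probe.

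Irf1, a transcription factor induced by interferon gamma, held the largest difference of the set and also its clearest disagreement between probes. Probe A_52_P175685 spans 146 bases of mm7 (chr11:53730701-53730846, plus strand), longer than the 60-base oligo itself. It had processed signals of 37.3, 38.7, 45.4 and 39.8 in anti-TIM3 cells against 66.1, 63.4, 74.5 and 60.02 in IgG cells. Every anti-TIM3 sample was below every IgG sample. The log2 ratios were -0.31, -0.49, -0.47 and -0.31, with a mean of -0.39 ± 0.10 (SD, n = 4; limma adjusted p = 0.000799). The probe is dim, and the size moved with the background correction, to -0.53 at a normexp offset of 10 and -0.71 from the deposited processed signals, both called.

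The brighter Irf1 probe, A_51_P146103 (chr11:53733970-53734029), did not show this. It had processed signals of 2196, 1876, 2430 and 2281 in anti-TIM3 cells against 1960, 1829, 2325 and 2205 in IgG cells, and the groups overlapped. The mean log2 ratio of this probe was 0.03 ± 0.04 (SD, n = 4; 95% interval -0.05 to 0.10; adjusted p = 0.582). The files do not say which Irf1 transcript each oligo matches. The oligos of 3 called probes that a second probe of the gene did not match, read from the deposited files, show what was hybridised, in lower case with no part marked.
Irf1 A_52_P175685: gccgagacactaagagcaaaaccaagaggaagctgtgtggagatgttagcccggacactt
Ifnar2 A_52_P190405: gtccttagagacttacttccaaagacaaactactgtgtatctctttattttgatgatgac
Ddx58 A_51_P393748: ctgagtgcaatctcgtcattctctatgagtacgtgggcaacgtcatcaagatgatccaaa

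The remaining transducers and factors were not called. Stat2, the type I signal transducer, had log2 ratios of 0.10, 0.20, 0.27 and -0.04 (mean 0.13 ± 0.14, SD, n = 4; adjusted p = 0.0825), and it passed without replicate 4 (0.19, adjusted p = 0.0327). Irf9, its DNA-binding partner, had ratios of -0.11, 0.50, 0.12 and 0.14 at its brightest probe. The mean of 0.16 ± 0.25 (SD, n = 4; adjusted p = 0.151) came mostly from replicate 2. The other Irf9 probe, well above background in Cy3 on 1 array, had a mean of -0.07 ± 0.12 (SD, n = 4, adjusted p = 0.301). Irf7 had a mean of -0.01 ± 0.08 (SD, n = 4), and since no IgG sample was well above background for it, no fold is given.

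Among the sensors of viral RNA and their partners, Ddx58 and Trim25 rose at their brightest probes. Ddx58 encodes RIG-I, which recognises RNA with a free triphosphate end. Its probe A_51_P393748 (mm7, chr4:40348348-40348407, minus strand) had processed signals of 236, 254, 138 and 192 in anti-TIM3 cells, against 214, 170, 129 and 124 in IgG cells. Anti-TIM3 was higher within each array, with overlap between the groups. The log2 ratios were 0.06, 0.56, 0.16 and 0.42 (mean 0.30 ± 0.23, SD, n = 4; adjusted p = 0.0174), and without replicate 4 the adjusted p was 0.0685.

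The other tested Ddx58 probes differed from it. A_52_P385536 had signals of 50.5, 49.5, 22.9 and 28.6 in anti-TIM3 cells against 45.1, 33.3, 10.7 and 17.7 in IgG cells. It rose by a log2 ratio of 0.12 ± 0.07 (SD, n = 4; adjusted p = 0.0497), a call lost without replicate 2, 3 or 4 (adjusted p = 0.149, 0.133 and 0.172). Its mean was 0.19 at a normexp offset of 10 and 0.63 from the deposited processed signals, and it was well above background in Cy3 on 2 of 4 arrays. A_52_P479001 had ratios of -0.16, 0.27, -0.22 and -0.10, above 0 on replicate 2 alone (mean -0.05 ± 0.22, SD, n = 4; adjusted p = 0.5996). With the tested probes of a gene averaged, Ddx58 was not called (0.12, adjusted p = 0.129).

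Trim25 is the ubiquitin ligase that acts on RIG-I. Probe A_51_P212854 (chr11:89128930-89128989) had processed signals of 1338, 1089, 906 and 1057 in anti-TIM3 cells against 1289, 758, 780 and 887 in IgG cells. The groups overlapped, and the log2 ratios of 0.01, 0.50, 0.20 and 0.22 differed most between replicates 1 and 2. The mean was 0.23 ± 0.20 (SD, n = 4; adjusted p = 0.0316). The call was lost without replicate 2 (0.14, adjusted p = 0.0910) or replicate 4 (0.23, adjusted p = 0.0790). The dimmer Trim25 probe had a mean of 0.04 ± 0.07 (SD, n = 4; adjusted p = 0.428). Eif2ak2, the RNA-activated kinase PKR, Ifih1, the RNA sensor MDA5, and Zbp1 were not called, with brightest-probe means of 0.13, 0.05 and 0.03.

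In the IFIT family, whose products bind viral RNA, Ifit3 rose at its brightest probe and Ifit1 and Ifit2 were not called. Ifit3 probe A_51_P359570 (chr19:34289919-34289978) had processed signals of 1053, 658, 495 and 638 in anti-TIM3 cells against 953, 550, 491 and 639 in IgG cells. The groups overlapped almost wholly, and replicate 4 showed no gap in these signals. The log2 ratios were 0.14, 0.32, 0.10 and 0.03 (mean 0.15 ± 0.12, SD, n = 4; adjusted p = 0.0498). The call was lost without replicate 1, 2 or 3 (adjusted p = 0.115, 0.205 and 0.0698). The probe A_52_P663686 (chr19:34313887-34313946), listed under Ifit3 by its name in the files alone, had -0.04 ± 0.15 (SD, n = 4; adjusted p = 0.634). Whether this probe measures Ifit3 itself was not tested.

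The OAS genes encode oligoadenylate synthetases and relatives that act in RNA decay and sensing. All 3 had ratios above 0 on all 4 arrays, and Oasl2 passed. Oasl2 probe A_51_P387123 (chr5:114132992-114133051) had signals of 91.3, 87.8, 62.2 and 69.6 in anti-TIM3 cells, against 55.4, 46.7, 45.8 and 53.8 in IgG cells. Every anti-TIM3 sample was above every IgG sample. Its log2 ratios were 0.21, 0.43, 0.16 and 0.20 (mean 0.25 ± 0.12, SD, n = 4; adjusted p = 0.00627). The mean was 0.34 at a normexp offset of 10 and 0.61 from the deposited processed signals, called in both. Oas1a (0.17, adjusted p = 0.102) and Oasl1 (0.13, adjusted p = 0.05999) did not pass.

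Of the 6 interferon-induced GTPase genes, Gbp2, a guanylate-binding protein that acts on intracellular pathogens, rose. Probe A_51_P203955 (chr3:142530694-142530753) had signals of 593, 531, 391.6 and 417 in anti-TIM3 cells against 500.2, 427, 360 and 367 in IgG cells. Anti-TIM3 was higher on each array, and the groups overlapped. The log2 ratios were 0.18, 0.31, 0.13 and 0.16 (mean 0.19 ± 0.08, SD, n = 4; adjusted p = 0.00851). Gbp3, Igtp, Irgm1, Mx1 and Mx2 had brightest-probe means between -0.02 and 0.13 and did not pass; on replicate 2 alone their ratios were 0.33, 0.48, 0.19, 0.15 and 0.43.

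Isg15, the ubiquitin-like modifier, and Usp18, the protease that removes it, were not called. Isg15 probe A_52_P463936 had signals of 790, 641, 412 and 567 in anti-TIM3 cells against 740, 597, 557 and 577 in IgG cells. The low value was the anti-TIM3 sample of replicate 3, where the log2 ratio was -0.40, while the ratios of replicates 1, 2 and 4 were 0.03, 0.07 and -0.02. The mean was -0.08 ± 0.21 (SD, n = 4; adjusted p = 0.411), and 0.03 without replicate 3. The files place this probe on chromosome 17, whereas RefSeq places Isg15 on chromosome 4, so its identity rests on the accession in the files.

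Of the other effectors, Ifi44 passed and Rsad2, Cmpk2, Bst2, Ifi35 and Rtp4 did not. Ifi44 probe A_51_P487690 had signals of 13.4, 19.1, 10.8 and 16.6 in anti-TIM3 cells against 11.9, 15.8, 10.7 and 17.7 in IgG cells, near background throughout and not well above it in any IgG sample, so no fold is given. Its fitted log2 ratios were -0.06, -0.13, -0.24 and -0.09 (mean -0.13 ± 0.08, SD, n = 4; adjusted p = 0.0388). The deposited processed signals gave the opposite sign (0.09, adjusted p = 0.377), and the call was lost without replicate 2, 3 or 4 (adjusted p = 0.101, 0.172 and 0.0716). Rsad2 encodes viperin, an enzyme that makes an antiviral nucleotide; its 3 probes had means of -0.10, 0.10 and -0.02. Bst2, or tetherin, which holds virions at the cell surface, had -0.12 ± 0.18 (SD, n = 4; adjusted p = 0.168), with -0.37 on replicate 3.

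**Figure D2:**
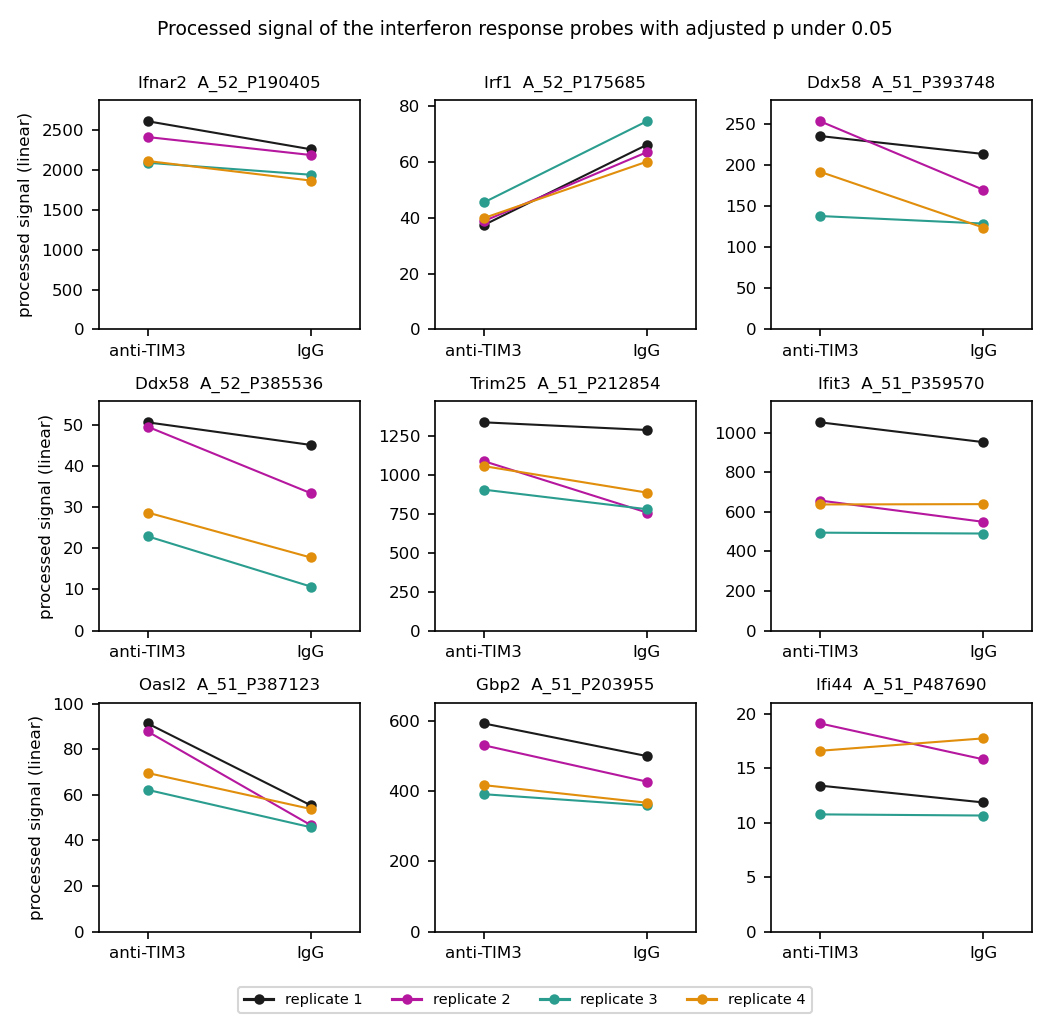
Processed signal on a linear scale in anti-TIM3 (left) and IgG (right) samples for the 9 interferon response probes with a limma adjusted p under 0.05; each line joins both samples of a replicate. The 4 anti-TIM3 points lie wholly apart from the 4 IgG points for Irf1 (below) and Oasl2 (above), and the groups overlap for the other 7 probes.

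The probes of a gene often differed in sign. Of the 12 genes with more than 1 tested probe, which hold 26 of the 47 probes, 11 had mean ratios on both sides of 0. Trim25 was the exception. Ifit3 is among the 11 only through probe A_52_P663686, which carries the Ifit3 name in the files alone. That probe also enters the Ifit3 mean over probes. At least 1 probe was called in 5 of the 12 genes, and all probes were called in 0. The same counts over all genes with several tested probes are not given here, so these counts are not compared with the array. With the tested probes of each gene averaged, 2 of 33 genes rose (Oasl2 and Gbp2, each measured by 1 probe) and 2 fell (Irf1 and Ifi44), against 6 and 1 by the brightest probe. The share of all genes called under this averaging is not given here. For Ifnar2, Trim25, Ifit3 and Ddx58 the call held at some probes of the gene and not at all of them, and it was lost in the mean over probes. The probes of a gene lie at different positions, and their matches to transcript forms were not analysed here.

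**Figure D3:**
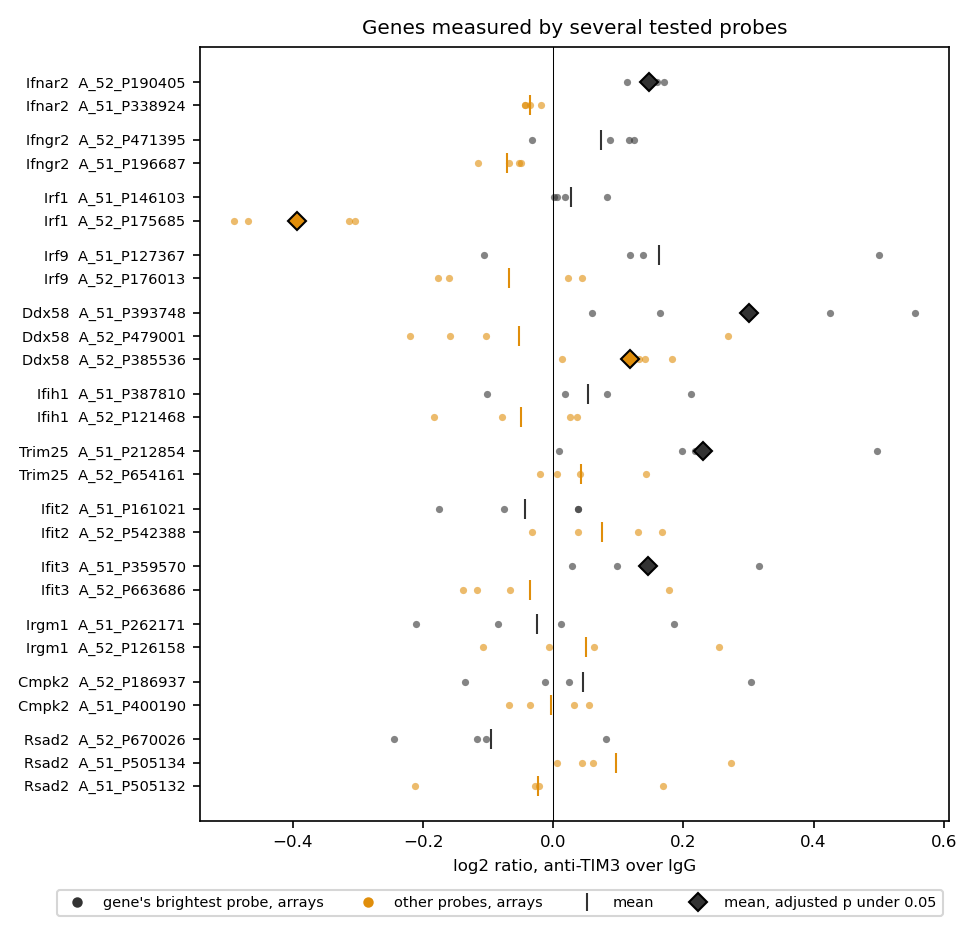
Log2 ratio of anti-TIM3 over IgG for the 26 probes of the 12 interferon response genes with more than 1 tested probe; points are the 4 arrays, ticks and diamonds the means, and diamonds mark an adjusted p under 0.05. The means of a gene's probes fall on both sides of 0 for 11 of the 12 genes, Ifit3 among them only through probe A_52_P663686. Irf1 has the widest gap, from 0.03 to -0.39.

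The set moved most on a single array. On replicate 2, the passage 16 cells, the median log2 ratio of the 47 probes was 0.17, against -0.02, -0.01 and 0.02 on replicates 1, 3 and 4. All tested probes had medians of -0.02, 0.02, 0.01 and 0.01 on replicates 1 to 4, so the array as a whole did not share this shift. On replicate 2, 41 of the 47 probes (87.2%) were above 0, against 55.5% of all tested probes. Replicate 2 gave the highest ratio of the 4 arrays for 30 of the 47 probes (63.8%), against 27.5% of all tested probes. The sign was the same on all 4 arrays for 16 of the 47 probes (34.0%), against 47.7% of all tested probes.

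The genes with the highest ratios on replicate 2, named after their values were seen, came from several role groups. By the brightest probe, Ddx58 had 0.56 there, Irf9 0.50, Trim25 0.50, Oas1a 0.49, Igtp 0.48, Mx2 0.43 and Oasl2 0.43. The other tested probes of these genes had lower ratios on replicate 2: 0.27 and 0.14 for Ddx58, 0.02 for Irf9 and 0.14 for Trim25. On the other arrays Mx2 and Oas1a lay between -0.06 and 0.09. Without replicate 2, 4 probes of the set rose and 2 fell, and 17.4% of all tested probes were called. The median over the 33 genes was 0.05 with all arrays and 0.01 without replicate 2. The 14 genes with a response element match in the promoter had a median of 0.23 on replicate 2, and the 14 with a promoter entry and no match had 0.09. On replicate 3 these medians were -0.06 and 0.08. They lay closer together on replicate 1 (0.04 and -0.03) and on replicate 4 (0.06 and 0.03). These are descriptions of single arrays, with no test.

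**Figure D4:**
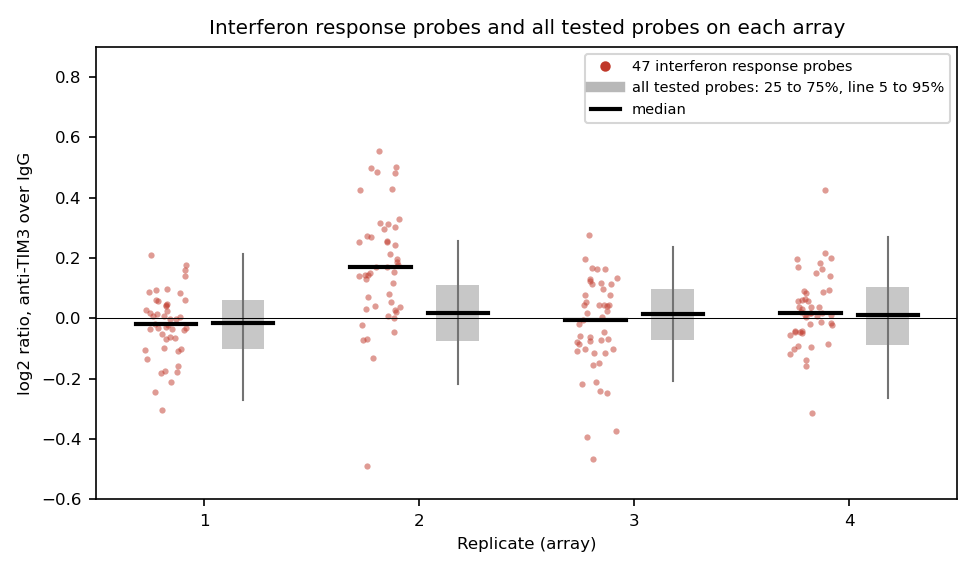
Log2 ratios of anti-TIM3 over IgG on each array for the 47 tested interferon response probes (red points) and for all tested probes (grey box, 25 to 75%, and line, 5 to 95%); black bars are medians. On replicate 2 the median of the interferon response probes is 0.17, above the 0.02 of all probes, and on the other arrays both medians lie between -0.02 and 0.02.

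The separate channels showed that the set also varied between passages under both treatments. Each channel was normalised between arrays, and each probe's mean over the 4 arrays was subtracted. In anti-TIM3 cells the median deviations of the 47 probes were 0.05, 0.12, -0.18 and 0.01 for replicates 1 to 4, and in IgG cells they were 0.11, 0.01, -0.11 and 0.01. All tested probes had medians within 0.02 of 0 in every channel and array. Replicate 3 was low under both treatments: 6 of 47 probes were above their mean in anti-TIM3 cells and 8 of 47 in IgG cells. As a set, the probes were high on replicate 2 in anti-TIM3 cells alone, with 44 of 47 above their mean, against 25 of 47 in IgG cells. Single probes differed. On replicate 2, Mx2 and Trim25 probe A_51_P212854 deviated by 0.03 and 0.11 in anti-TIM3 cells and by -0.32 and -0.16 in IgG cells. The brightest probes of Ddx58, Irf9, Oas1a, Igtp and Oasl2 deviated by 0.21 to 0.36 in anti-TIM3 cells and by -0.06 to 0.04 in IgG cells.

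The spread over passages is set beside that of all probes here. The median range over the 4 arrays was 0.35 for the 47 probes in anti-TIM3 cells and 0.30 in IgG cells, against 0.19 and 0.23 for all tested probes. Rsad2 had the widest range: probe A_52_P670026 had signals of 1855, 1291, 721 and 1070 in anti-TIM3 cells against 2106, 1209, 763 and 1141 in IgG cells. Both treatments shared the order, with replicate 1 highest and replicate 3 lowest. Its ranges on the log2 scale were 1.01 in anti-TIM3 cells and 1.15 in IgG cells, while its mean log2 ratio between treatments was -0.10 ± 0.13 (SD, n = 4). The fibroblast marker list, which is mostly the collagen gene Col1a1 here, also differed between passages, with summed signals of 1203, 4129, 7761 and 5516 in anti-TIM3 cells of replicates 1 to 4 and 1155, 3858, 6936 and 4738 in IgG cells. These sums were lowest in replicate 1 and highest in replicate 3, where the interferon probes were lowest, and their part in the interferon result was not tested. With 1 sample per passage and treatment, and both samples of a passage on 1 array, differences between passages, single cultures and arrays cannot be told apart.

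**Figure D5:**
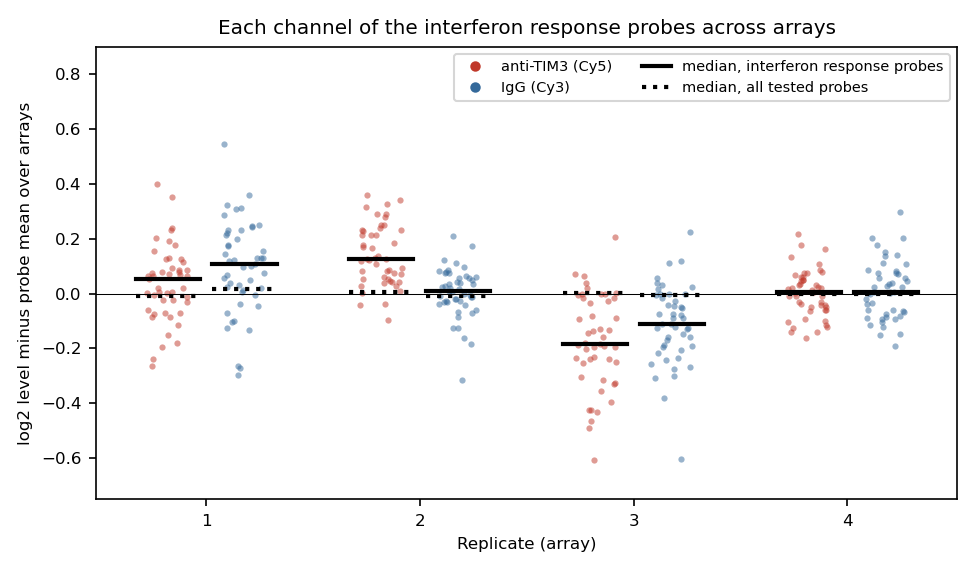
Deviation of each interferon response probe's log2 level from its own mean over the 4 arrays, in anti-TIM3 (red, left) and IgG (blue, right) samples; solid bars are medians of the 47 probes and dotted bars medians of all tested probes. The set is low in both channels of replicate 3 (-0.18 and -0.11) and high in the anti-TIM3 channel of replicate 2 (0.12).

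Other genes of the pathway, from a list of 122 interferon ligands, kinases, regulators and induced genes, were read in the same fit. Of these, 111 had a probe and 92 were tested, and 13 rose and 8 fell (22.8% called, against 28.0% of all named genes). Among the ligands, 8 of 15 genes with a probe were tested, 0 rose and Ifna1 fell (-0.18 ± 0.14, SD, n = 4; adjusted p = 0.0312); it was well above background in Cy3 on 1 array. Ifnb1 and Ifng, the main type I ligand of non-immune cells and interferon gamma, were not well above background on any array in either channel. Of the receptor kinases, Tyk2, the kinase bound to Ifnar1, fell (-0.22 ± 0.14, SD, n = 4; adjusted p = 0.0154), a call lost without replicate 1 or 4 (adjusted p = 0.0629 and 0.0632).

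The inhibitors and induced genes held changes in both directions. Pias1 rose at its brightest probe (0.20) and Pias4 fell (-0.23), both SUMO ligases known to restrain interferon signalling. The second Pias1 probe had -0.01 and was not called, and the call of the first was lost from the deposited processed signals (0.17, adjusted p = 0.0536). Among the induced genes 7 rose and 1 fell of 44 tested (18.2% called, against 28.0% of all named genes). Isg20, an RNA exonuclease, had the highest mean of these at its brightest probe (0.25 ± 0.06, SD, n = 4; adjusted p = 0.00226). The other tested Isg20 probe had 0.04 and was not called. Cxcl10, a chemokine induced by interferon gamma, rose by 0.20 ± 0.11, and Irgm2, an immunity-related GTPase, by 0.22 ± 0.21 (SD, n = 4 each; adjusted p = 0.011 and 0.0438). The Irgm2 call was lost without replicate 1, 2 or 4 (adjusted p = 0.0515, 0.129 and 0.117). Tap1, a peptide transporter of antigen presentation, fell (-0.24 ± 0.12, SD, n = 4; adjusted p = 0.0083), with -0.37 at a normexp offset of 10 and -0.62, no longer called, from the deposited processed signals (adjusted p = 0.0724). Cgas, the cytosolic DNA sensor, rose (0.20, adjusted p = 0.00552). The median of the 92 genes on replicate 2 was 0.10, against -0.01, 0.02 and 0.02 on replicates 1, 3 and 4.

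The marker lists were read in the same way. The 10 leukocyte markers summed to processed signals of 625 to 888 per array in anti-TIM3 cells and 605 to 817 in IgG cells, and 7 were tested. Tyrobp, an adaptor of myeloid and natural killer cells, rose (0.33, adjusted p = 0.00136), and the other 6 did not pass. Of 5 plasmacytoid dendritic cell markers, Clec10a was not well above background on any array and Siglech only in Cy5 on 1 array. Tcf4 had this flag on 4 arrays in Cy5 and 4 in Cy3, and Ccr9 in Cy5 on 4 arrays and in Cy3 on 1. Bst2, which is also in the interferon set, supplies most of that list's signal. None of the 3 tested genes of the list passed at its brightest probe, while another Tcf4 probe rose (0.26). Of 6 fibroblast markers, Dcn was not well above background on any array, and Col1a1 rose (0.13) at its brightest probe, while its other tested probe had -0.02. Col3a1 also passed, but it was well above background in Cy3 on 0 arrays, so no fold is given. In comparison, the 7 melanocyte lineage markers summed to 456652 to 553429 in anti-TIM3 cells and 381263 to 496892 in IgG cells, and 5 of them rose at their brightest probe (Dct, Tyrp1, Pmel, Mlana and Sox10, by 0.18 to 0.58), while the other Sox10 probe fell (-0.30). Whether cells other than melanoma cells had a part in the interferon gene ratios was not tested, and in such bulk RNA fewer cells of a type cannot be told apart from less RNA per cell.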

How the data were processed

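Total RNA of B16-F10 cells was measured on 4 two-colour Agilent whole-genome arrays, all on a single slide and in a single scan, per the file headers. The deposited scanner files hold linear intensity per spot and channel, which name Agilent Feature Extraction 9.5.1.1 in their headers (version 9 per the submitters' processing notes). The processed signals printed here are intensity values that the authors' scanner software had corrected for background, spatial trend and dye, per the file headers. The value table deposited with the arrays gives Cy5 over Cy3 as log10, equal to the ratio column of the scanner files (largest difference 0), and serves as a check. Probe coordinates are those of the files, annotation build mm7 per the file headers, and the aligner behind them is not given in the sources used here.

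Here the mean signal was corrected with normexp (offset 50) on the median local background and normalised by loess within each array, control spots having weight 0. Outlier spots were dropped and repeat spots averaged. A probe was tested if 3 or more arrays flagged it well above background in Cy5 or in Cy3. The two-sided test of log2 ratios against 0 used lmFit and eBayes of limma 3.58.1 (R 4.3.3), and p-values were adjusted by Benjamini-Hochberg across the tested probes, with calls at 0.05. Levels per channel used Aquantile normalisation between arrays. Between 25656 and 28393 probes per array were well above background in Cy5 and between 21144 and 22043 in Cy3, and the small number of arrays limits the precision.

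Probes were named through RefSeq accessions and symbols of GRCm38.p6, so that Gbp3 is listed as Gbp4 and Cmpk2 as Tyki in the files. The named genes are every probe of the set past the threshold, every receptor chain, transducer and factor, the gene with the largest absolute ratio in each role group, and the 8 other pathway genes with the largest absolute ratio among those called, each by its brightest tested probe. Further genes named were chosen after their values were seen. The values of 1 gene of the pathway list are not reported here, although it is in the counts. The member list, the other lists and the tests were chosen with earlier results of these data known. Where the brightest probe stands for a gene, the mean over its probes was tried as an alternative. Other alternatives were the normexp offset, the deposited processed signals, centring on the median, the filter on dim probes, outlier spots, a variance trend, removal of intensity and base trends, separate channels, and leaving out each replicate.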

Additional observations from a re-analysis of the deposited data

Results flagged for a closer look

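Of 26 results checked for one array far from the others, 1 stood out. The median log2 ratio of the 33 interferon response genes was 0.20 on replicate 2, against 0.02 on each of replicates 1, 3 and 4, a gap beyond Dixon's 95% critical value for 4 samples. By chance about 1 in 20 groups meets this mark. The same array gave the highest of the 4 ratios for 24 of the 33 genes (72.7%), against 26.3% of all named genes. The check used gene medians by the brightest probe, which were almost equal on replicates 1, 3 and 4. The medians of the 47 probes spread more, at -0.02, 0.17, -0.01 and 0.02 on replicates 1 to 4, and were not put to this check.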

How the results depend on the processing

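The calls depend on single arrays. Leaving out one replicate at a time, 4 to 6 probes of the set rose and 1 to 2 fell, 4 to 5 genes rose and 0 to 1 fell, and the median over genes was 0.01 to 0.08, while 15.9 to 23.0% of all probes were called. The calls for Irf1, Gbp2 and Oasl2 held in each of these fits. Without replicate 2 or 4 the sign of Irf7 changed (-0.046 to 0.016 over these fits), and without replicate 3 that of Isg15 (-0.129 to 0.026). From the deposited processed signals 4 probes rose and 1 fell, 3 genes rose and 0 fell, 19.7% of all probes were called, and Ifi44 (0.092) and Ifngr1 (0.0255) changed sign. With arrays centred on the median, 0 probes and 0 genes of the set passed in limma. Without adjustment 1 probe of the set fell and 0 rose at p under 0.05, against 38 and 968 of the 26543 tested probes. In this setting the median of the tested probes was 0.15 and that of the set's genes 0.27. Ifngr1 (0.34) and Isg15 (0.13) changed sign, although Isg15 stayed below the median of the tested probes. With both channels fitted separately and no replicate block, 0 probes rose and 1 fell (Irf1, adjusted p = 0.0154), 0 genes rose or fell, and 2.19% of all probes were called. With the filter requiring both channels on all arrays, 6 probes rose and 1 fell, 6 genes rose and 0 fell, and 33.3% of all probes were called. With intensity and base trends removed, Ifngr1 (0.028) and Irf7 (0.042) changed sign. The mean over a gene's probes left 2 genes higher and 2 lower, and the share over all genes in this setting is not given here. Over the named probes and all alternatives, 243 values kept direction and call, 67 lost the call, 2 gained one and 9 changed sign. The cause of these differences was not tested.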
